A study of Homo sapiens with 18 samples.

Results

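A Control ChIP-seq library of RNA polymerase II was compared with one whose file name says EGF, so that 2 of the 18 libraries of the series entered the comparison. Both came from HCT116 INTS11-AID cells, a human colon cancer line whose INTS11 protein is fused to a degron, a tag that lets the auxin IAA trigger its destruction. The tag is present in the Control as well. INTS11 is the RNA-cutting subunit of the Integrator complex. The library called here the EGF-filed library is titled IAA, while its file name says EGF. A further library of the same set is titled EGF and its file name says IAA. The comparison follows the file names, which make it the response to EGF with INTS11 present, and the values of the library titled EGF are given beside the main results as the other reading. A single protocol text covers all samples and lists serum withdrawal (14 h), interferon beta (2000 U, 1 h), EGF (100 ng/µl, 30 min) and IAA (500 µM, 1 h), and which library received which agent is given only by title and file name. Each condition has 1 library, so no difference has a replicate check and no test was made. The labels do not say whether the line is a single clone, and INTS11 protein was not measured in these files.

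EGF, the epidermal growth factor, binds its receptor at the cell surface and switches on the RAS-ERK kinase cascade. ERK then activates transcription factors already present in the cell, among them ELK1 and SRF, which act on immediate early genes such as FOS, JUN and EGR1 without any new protein being made. SRF binds a sequence called the CArG box, and it also serves genes of the actin cytoskeleton. RNA polymerase II (Pol II) is the enzyme that transcribes these genes. It often pauses just after the start, and in an active gene it is also found through the gene body and beyond the end, where transcription terminates.

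The deposited lists hold peaks, stretches where fragments pulled down with a Pol II antibody piled up. After peaks overlapping an input peak were removed, 35424 peaks remained in the Control library (1.16% removed) and 33226 in the EGF-filed library (0.995% removed), on chromosomes 1 to 22 and X. The median peak was 472 bp wide in the Control library and 477 bp in the EGF-filed library. At least 1 bp was shared by 80.8% of the Control peaks and 86.0% of the EGF-filed peaks. The unshared peaks were narrow, with medians of 251 and 241 bp. Total read numbers were not used here. The lowest local background, a stand-in for depth, was 1.58 fragments in the Control library, 1.41 in the EGF-filed library and 1.32 in the library titled EGF. Because Integrator cuts the ends of small nuclear RNAs, the 20 small nuclear RNA genes bear on the label conflict. The median distance from such a gene to the nearest Pol II summit was 1 bp in the Control library and 2 bp in the EGF-filed library, 336 bp in the library titled EGF and 341 bp in the library titled IAA+EGF. In Control libraries of the same series numbered 1 and 2 it was 22.5 and 22 bp. A summit lay within 100 bp at 18 of the 20 genes in the Control library and 17 in the EGF-filed library. The count was 0 in the library titled EGF, 1 in that titled IAA+EGF, and 18 and 15 in the numbered Control libraries.

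The clearest differences in the EGF-filed library lay at immediate early genes. EGR1, which encodes a zinc finger transcription factor, had the largest rise of all genes compared in the fragment level around its start peak, and its start peak grew from a narrow peak into one that ran along nearly the whole gene. JUN, FOS, EGR2 and EGR3 followed within the first 8 of 12170 genes, and the actin genes ACTB and ACTG1 were 11th and 20th. Several other gene groups, ribosomal protein genes and Integrator subunit genes among them, had no member past the threshold used below in either direction. Over all genes only 0.731% passed it upward and 2.07% downward, shares at which small groups would hold few or none. About as many genes had a start peak in either library, and within-list rank did not single out the immediate early genes.

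The 250 bases before the listed starts of 5 genes are shown because the results below refer to them. EGR1, FOS and JUN are 3 of the genes with the largest rises. ACTG1 and CNN2 were chosen as the called actin cytoskeleton genes that have a CArG box in this window. Capitals mark a CArG box in EGR1, ACTG1 and CNN2 and the motif TGANNTCA, a family of sequences bound by AP-1 and related factors, in JUN. The sequences are from RefSeq (GRCh38.p14), written 5′ to 3′ on the gene's strand, and lie at chr5:138465229-138465478 (plus strand) for EGR1, chr14:75278578-75278827 (plus) for FOS, chr1:58784048-58784297 (minus) for JUN, chr17:81512800-81513049 (minus) for ACTG1 and chr19:1026358-1026607 (plus) for CNN2.
EGR1: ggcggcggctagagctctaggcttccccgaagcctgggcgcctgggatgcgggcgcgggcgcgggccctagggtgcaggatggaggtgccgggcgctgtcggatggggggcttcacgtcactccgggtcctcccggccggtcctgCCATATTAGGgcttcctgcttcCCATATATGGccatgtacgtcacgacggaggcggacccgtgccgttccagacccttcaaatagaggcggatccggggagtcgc
FOS: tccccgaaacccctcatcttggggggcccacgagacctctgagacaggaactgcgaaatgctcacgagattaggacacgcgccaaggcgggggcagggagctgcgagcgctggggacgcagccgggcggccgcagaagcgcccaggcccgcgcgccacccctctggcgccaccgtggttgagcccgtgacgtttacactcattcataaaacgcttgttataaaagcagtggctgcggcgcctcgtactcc
JUN: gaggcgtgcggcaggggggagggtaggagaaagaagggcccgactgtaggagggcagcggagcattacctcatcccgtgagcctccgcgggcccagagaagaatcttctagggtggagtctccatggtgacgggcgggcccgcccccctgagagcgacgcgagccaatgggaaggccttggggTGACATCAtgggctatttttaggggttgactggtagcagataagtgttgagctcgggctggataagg
ACTG1: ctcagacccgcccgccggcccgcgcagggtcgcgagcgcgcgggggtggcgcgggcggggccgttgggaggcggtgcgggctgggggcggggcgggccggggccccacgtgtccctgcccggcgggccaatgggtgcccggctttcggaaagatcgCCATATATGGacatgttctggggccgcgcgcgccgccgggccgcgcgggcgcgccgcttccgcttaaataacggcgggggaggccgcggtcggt
CNN2: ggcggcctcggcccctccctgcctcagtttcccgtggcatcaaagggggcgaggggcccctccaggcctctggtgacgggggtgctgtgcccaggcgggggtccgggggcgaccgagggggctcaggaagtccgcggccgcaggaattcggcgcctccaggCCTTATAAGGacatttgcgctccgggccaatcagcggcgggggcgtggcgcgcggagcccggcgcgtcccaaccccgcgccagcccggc

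The 2 CArG boxes of EGR1 span bases 105 to 96 and 83 to 74 before its start. The CArG box of ACTG1 spans bases 94 to 85, and that of CNN2 bases 89 to 80. In JUN the capitals span bases 67 to 60. Neither motif was found in these 250 bases of FOS, which says nothing about sequence outside the window.

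Around each start peak, the fragment level was read from the local background that the peak caller used there. This number of fragments was solved from the caller's fold and p at each summit. It was compared as a log2 ratio of the EGF-filed over the Control library, relative to the median of the 12170 protein-coding genes with a start peak in both, where a start peak is one with its summit within 1 kb of a gene's start. A difference of 0.5 on this scale, 1.41-fold, was called. How wide a window the caller used for this background is not stated in the labels or headers, nor whether it was taken from the Pol II library itself or from an input. A background taken from an input would not measure Pol II, so these values are given as the caller's background only. In the Control library, summits 1256, 2676 and 4665 bp from the IER2 start had nearly the same value, 53.3, 52.5 and 51.4 fragments. The value is thus not confined to the stretch at the start. Of the 12170 genes, 89 were called higher (0.731%) and 252 lower (2.07%) in the EGF-filed library. The 89 genes rest on 80 distinct peaks in the EGF-filed list, since close gene pairs share 1. Between the 2 numbered Control libraries, compared the same way, 1.47% were called higher and 0.365% lower, so the share called higher was larger there and the share called lower smaller. Scaling by each library's lowest background in place of the median moved all genes up by 0.19 and changed the split to 545 higher and 57 lower. LMF2 (0.50) stood just inside the threshold and AXIN1 (0.4995) just outside.

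**Figure D1:**
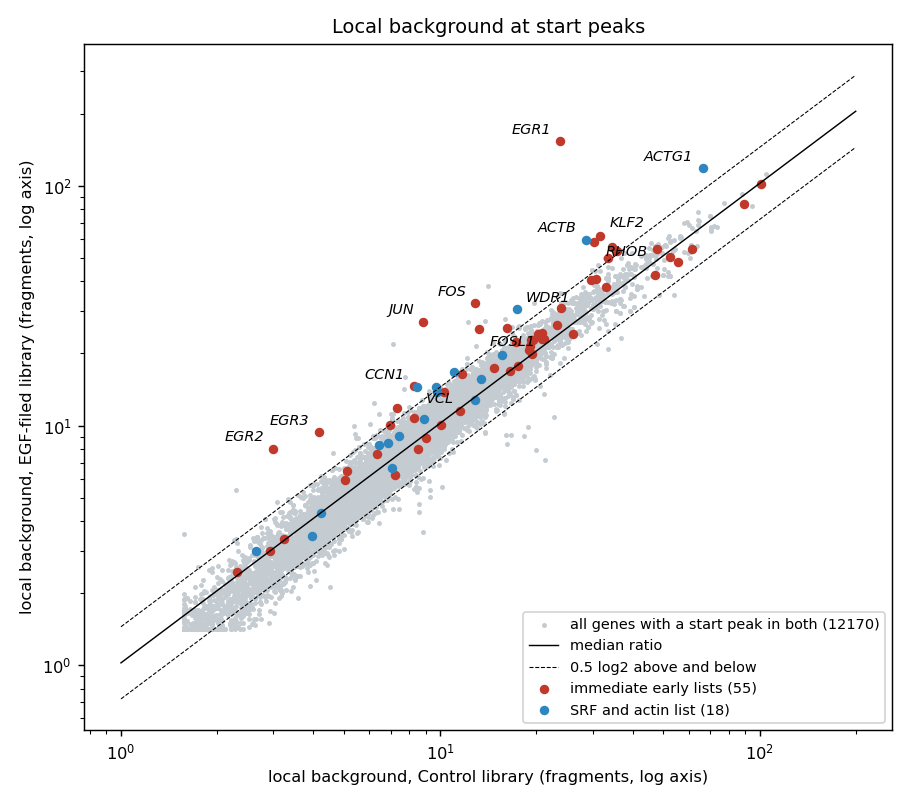
Local background at start peaks in the EGF-filed library (y axis) against the Control library (x axis), in fragments on log axes, for 12170 genes. The solid line is the median ratio, the dashed lines lie 0.5 log2 above and below, and EGR1 (23.8 against 154 fragments) stands farthest above.

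Of the 58 genes of 3 immediate early lists, 55 had a start peak in both libraries. Of these 55, 14 were called higher and 0 lower. In the library titled EGF, against the same Control, 13 of 54 were called higher and 4 lower. The shares over all genes there were 4.89% higher and 3.09% lower, against 0.731% and 2.07% in the EGF-filed library. In the EGF-filed library, 14 of the 89 genes called higher came from these lists, and 5 of the 12 genes that were higher by at least 2-fold. The same 55 genes had a median log2 ratio of 0.21, beside 0 for all genes, and 41 of them lay above 0. In the comparison of the numbered Control libraries 0 of 53 were called higher and 0 lower, with a median of -0.09. With scaling by the lowest background, 22 of the 55 were called higher.

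EGR1 (chr5:138465479-138469303, plus strand) had a local background of 23.8 fragments in the Control library and 154 in the EGF-filed library. It was 22.7 in the library titled EGF, 57.2 in the library titled IAA+EGF, and 11.6 and 17.2 in the numbered Control libraries. The EGF-filed value thus stood alone above the other 5, and relative to the median gene it was 6.32-fold the Control value (log2 ratio 2.66). The start peak was 403 bp wide in the Control library and 3622 bp in the EGF-filed library, the largest widening among all shared genes. It ran from 93 bp before the start to 3528 bp after it, in a gene of 3825 bp. In the 4 other libraries the EGR1 start peak measured between 309 and 466 bp. The summit itself stayed near the start, 29 bp after it in the Control library and 44 bp in the EGF-filed library. The fragments stacked there numbered 195 (exact Poisson 95% interval 169 to 224) and 358 (322 to 397), intervals that cover counting error only. The upper limit of 397 lies above the highest stack of any peak in the EGF-filed library, 386. A Poisson interval therefore need not hold for stacks this high, and whether they had room to rise further was not tested.

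A peak with its summit 1388 bp before the EGR1 start was called in the Control library, and one between 1384 and 1444 bp before it in each of the 4 other libraries, but not in the EGF-filed library. A second EGF-filed peak of 1256 bp began 3669 bp after the start and ran past the gene's end. Peaks past that end were called in the 4 other libraries too, though not in the Control library. Counting all bases of EGR1 and 1 kb on both sides that lay in peaks, the covered length went from 930 to 4778 bp. That rise of 3848 bp was the largest of 19970 protein-coding genes.

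**Figure D2:**
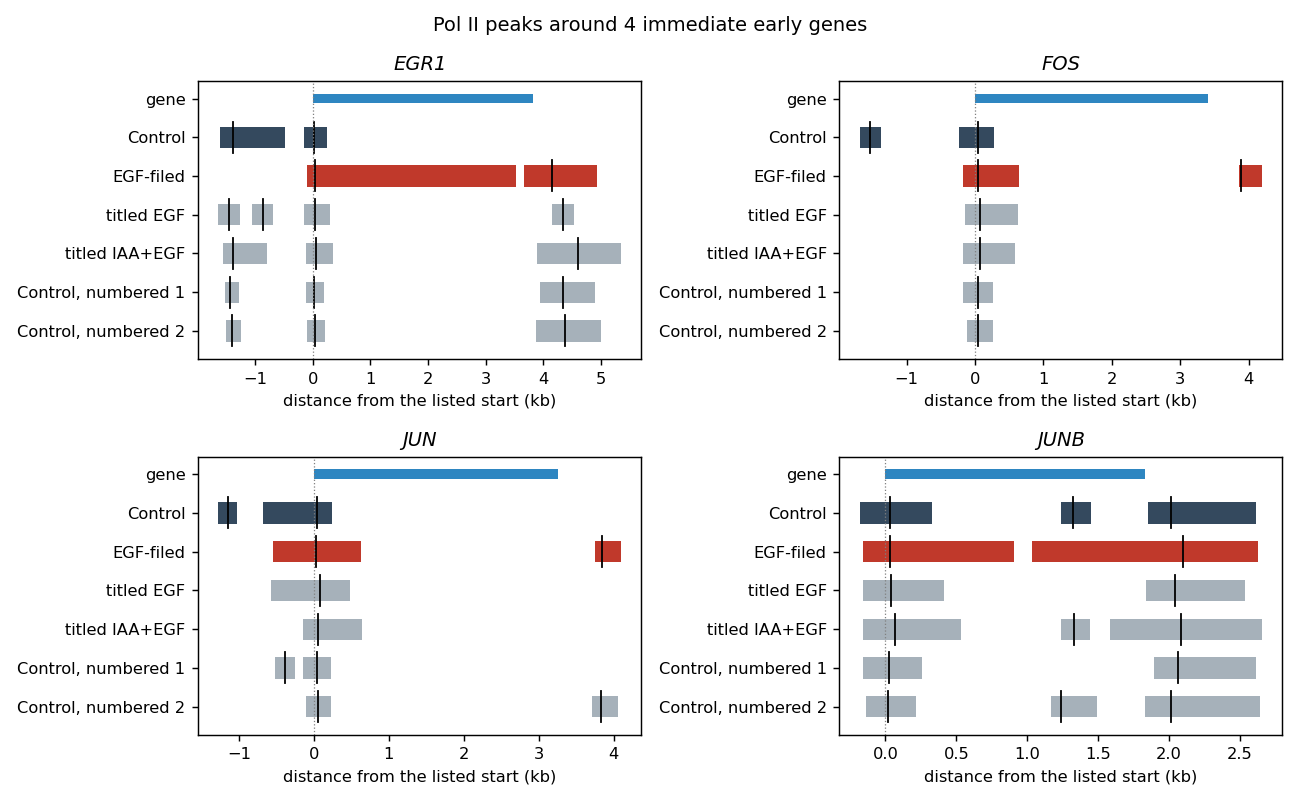
Peaks around EGR1, FOS, JUN and JUNB in 6 Pol II libraries, placed by distance from the listed start in kb, with a black tick at each summit and the gene in blue. The EGF-filed peak of EGR1 spans 3622 bp, and in the other libraries the EGR1 start peak is between 309 and 466 bp wide.

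FOS and JUN encode the partners of the AP-1 transcription factor. The local background of FOS (chr14:75278828-75282230, plus strand) was 12.8 fragments in the Control library and 32.5 in the EGF-filed library, 2.47-fold relative to the median gene. It was 16.1 in the library titled EGF and 25.7 in the library titled IAA+EGF. The FOS start peak widened from 520 to 821 bp. Its summit stack went from 296 (263 to 332) to 356 (320 to 395), so that the counting intervals overlap. The value of 356 was close to the highest stack in the EGF-filed library, 386, and the interval runs past it. The overlap therefore does not show that the stack hardly changed. A peak 3889 bp after the FOS start, past the gene's end, was called in the EGF-filed library and in none of the other 5. It was a weak call, with a -log10 q (the caller's significance value) of 2.45 beside a median of 15.6 in that library. JUN (chr1:58780791-58784047, minus strand) had a local background of 8.86 fragments in the Control library and 27.1 in the EGF-filed library, 2.99-fold relative to the median gene. The library titled EGF had 14.8 at JUN and the library titled IAA+EGF 20.8. Its stack went from 134 (112 to 159) to 245 (215 to 278) and its start peak from 920 to 1176 bp. At both genes the order was the same, the EGF-filed library highest, then IAA+EGF, then the library titled EGF, then the Control. The numbered Control libraries, which are shallower, had 5.795 and 6.40 at FOS and 5.57 and 7.03 at JUN. Divided by each library's lowest background, JUN stood at 5.62 in the Control library, at 19.2 in the EGF-filed library, and at 9.97 and 7.59 in the numbered Control libraries, so the Control value was the lowest of the 3 controls.

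Of the 9 AP-1 genes with a start peak in both libraries, 5 were called higher, and the list median was 0.55. FOSL1, a FOS relative, went from 13.2 to 25.2 fragments and stood at 29.8 in the library titled IAA+EGF. JUNB went from 33.5 to 50.2 fragments, its start peak from 509 to 1066 bp and its covered length from 1489 to 2664 bp. JUND went from 34.6 to 55.5 fragments, while its start peak narrowed from 1400 to 519 bp. MAFF, a small Maf protein, lay just under the threshold at 0.49, with 6.96 and 10.0 fragments. FOSL2 did not follow, with 9.04 and 8.92 fragments, and ATF3 had no peak at its listed starts in either library.

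The EGR, NR4A and IER list held 10 genes with a start peak in both libraries, of which 4 were called higher. Beside EGR1 these were EGR2, EGR3 and NR4A3. EGR2 went from 3.0 to 8.01 fragments and its stack from 23 (14.6 to 34.5) to 55 (41.4 to 71.6). The EGR3 background went from 4.16 to 9.36 fragments and its stack from 21 (13.0 to 32.1) to 62 (47.5 to 79.5). No start is listed for EGR3, FOSL1, NR4A2, CCN1, MCL1 or ACTB, so their start peaks are those near either end of the gene. NR4A3, an orphan nuclear receptor, went from 7.31 to 11.9 fragments, with the compared summits at -266 and 5 bp from the start. Its relatives NR4A1 (8.55 and 7.95) and NR4A2 (20.9 and 24.4) had little change in local background, but wider start peaks, 601 to 1125 bp and 1168 to 2596 bp. In both, the Control library had a second peak next to the first, of 308 bp at NR4A1 and 1289 bp at NR4A2, inside the stretch that the single EGF-filed peak spanned. The covered length of NR4A2 changed by -122 bp. IER3 was at 89.4 and 83.9 fragments. IER2 had no peak within 1 kb of its listed start. Its highest peak lay 2676 bp downstream in the Control library and 2673 bp in the EGF-filed library, where the local background was 52.5 fragments in the Control library and 94.4 in the EGF-filed library, and the covered length of IER2 went from 1809 to 2787 bp.

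In the list of 36 other immediate early genes, 5 were called higher, with a list median of 0.15. They were KLF2, a zinc finger factor (31.7 to 61.6 fragments), RHOB, a small GTPase (30.4 to 58.3), CCN1, a secreted matrix protein (8.25 to 14.6), MCL1, a survival factor (16.2 to 25.5), and ZFP36, which binds unstable mRNAs (35.9 to 53.3). Divided by each library's lowest background, CCN1 stood at 5.23 in the Control and 10.4 in the EGF-filed library, but also at 10.005 in numbered Control library 1. The covered length of RHOB went from 1575 to 3111 bp, the third largest rise of all genes. ERF, a repressor that ERK controls, was not called for background (17.3 and 22.3 fragments), but its start peak went from 424 to 1822 bp, where the Control library held separate peaks. Over all genes, a start peak at least 2-fold wider was found at 171 genes (1.41%) and at least 2-fold narrower at 194 (1.59%). The numbered Control libraries gave 3.73% and 2.05%. In the immediate early lists 4 were wider and 2 narrower. The covered length rose by at least 1000 bp at 19 genes (0.0951%) and fell by as much at 61 (0.305%). In the immediate early lists 4 genes rose that far, namely EGR1, RHOB, NR4A1 and JUNB, and 0 fell. The library titled EGF had 14 such rises (0.0701%) and 525 falls (2.63%) against the same Control, and the numbered Control libraries 52 rises (0.26%) and 0 falls (0%). The summit stack, relative to the median gene, was higher by 0.5 log2 at 1.6% of all genes and lower at 4.22%, and in the immediate early lists at 7 and 0 of 55.

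**Figure D3:**
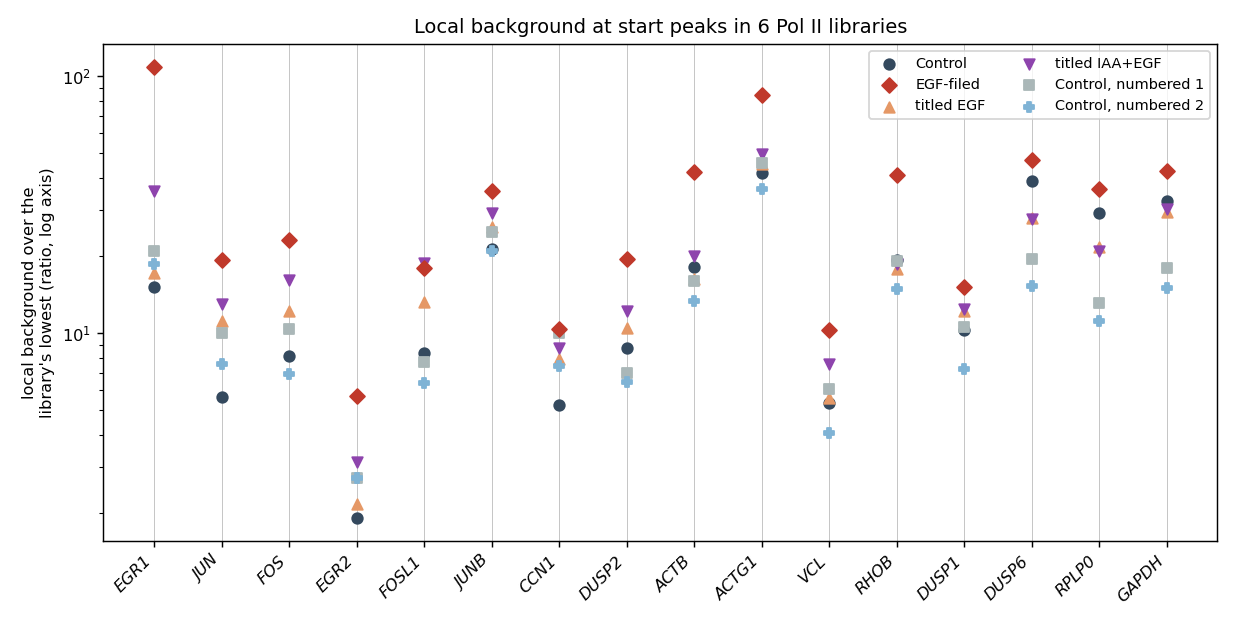
Local background at the start peaks of 16 genes in 6 Pol II libraries, each divided by that library's lowest background and shown on a log axis. This scale sets all genes of the EGF-filed library 0.19 log2 above the median-centred one, and the EGF-filed library stands highest at 15 of the 16 genes, GAPDH and RPLP0 included, the exception being FOSL1.

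Of the 18 genes of the SRF and actin list with a start peak in both libraries, 6 were called higher and 0 lower, and the list median was 0.28. ACTB and ACTG1, which encode the cytoplasmic actins, went from 28.5 to 59.7 fragments and from 66.3 to 119. In the library titled EGF they were at 21.5 and 60.02, and in the library titled IAA+EGF at 32.0 and 79.6. VCL, the gene of the adhesion protein vinculin, went from 8.43 to 14.5 fragments. WDR1, which helps take actin filaments apart, went from 17.3 to 30.7, CNN2, a calponin, from 11.1 to 16.8, and ZYX, the gene of zyxin, from 9.66 to 14.5. WDR1 was also high in the library titled EGF, at 26.9 fragments, whereas VCL, ZYX and CNN2 were there at 7.36, 8.47 and 9.02. MYL9, TPM4 and TAGLN, further members, were at -0.23, -0.12 and -0.0038. ACTN4, outside the fixed lists and named after its value was seen, had the second largest rise in covered length, 1974 bp.

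A CArG box was present in the 250 bases before a listed start at 7 of the 67 genes called higher for which a start is listed (10.4%). These genes were ACTG1, BCL2L12, CNN2, EGR1, EGR2, GNAL and MIDEAS. The other called members of the SRF and actin list, ACTB, VCL, WDR1 and ZYX, were not among them, and ACTB has no listed start. The share was 1.44% of the 10027 genes with a start peak in both libraries and a listed start, and 1 of 189 among the genes called lower. Of all 22131 listed starts, 1.18% held a CArG box in this window and 8.71% the motif TGANNTCA, each searched on both strands. The latter was found at 13 of the 67 genes called higher (19.4%), at 9.97% of the 10027 genes and at 29 of the 189 called lower (15.3%). A match is a description of the letters, and no test was made of these shares.

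The feedback genes that ERK signalling is known to induce moved little between the Control and EGF-filed libraries. Of 26 MAPK feedback genes with a start peak in both libraries, 1 was called higher and 0 lower, and the list median was 0.04. The called gene was DUSP2, a phosphatase that switches off ERK, at 13.8 and 27.3 fragments. DUSP1, which acts in the same way, had 16.2 and 21.3, and DUSP6 had 61.5 and 66.6. SPRY4, an inhibitor of the cascade, had 39.7 and 38.9. SPRY1 was lower, at 7.15 and 5.85. Divided by each library's lowest background, DUSP6 stood at 39.0 in the Control and 47.1 in the EGF-filed library. In numbered Control libraries 1 and 2 it stood at 19.4 and 15.3. SPRY4 stood at 25.2 and 27.5, against 13.0 and 9.41 in the numbered libraries. DUSP1 stood at 10.3 and 15.1, against 10.6 and 7.24. DUSP6 and SPRY4 were thus higher in this Control library than in the numbered ones. The start peak of DUSP6 was 1234 bp wide in the Control library and 2239 bp in the EGF-filed library, where it spanned nearly the same stretch as that peak and a second Control peak of 731 bp together.

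Genes of the receptor and the cascade itself were also close to the median. In the EGF receptor family and ligand list 0 of 9 were called higher and 1 lower, namely EREG, the ligand epiregulin, with 21.1 and 13.6 fragments. EGFR, the receptor, had 6.47 and 6.16, and HBEGF, a ligand, 10.2 and 11.2. HBEGF stood at 20.9 fragments in the library titled EGF. NRG4, another ligand, had a start peak only in the Control library. Of 24 RAS-ERK pathway genes 0 were called higher and 1 lower.

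**Figure D4:**
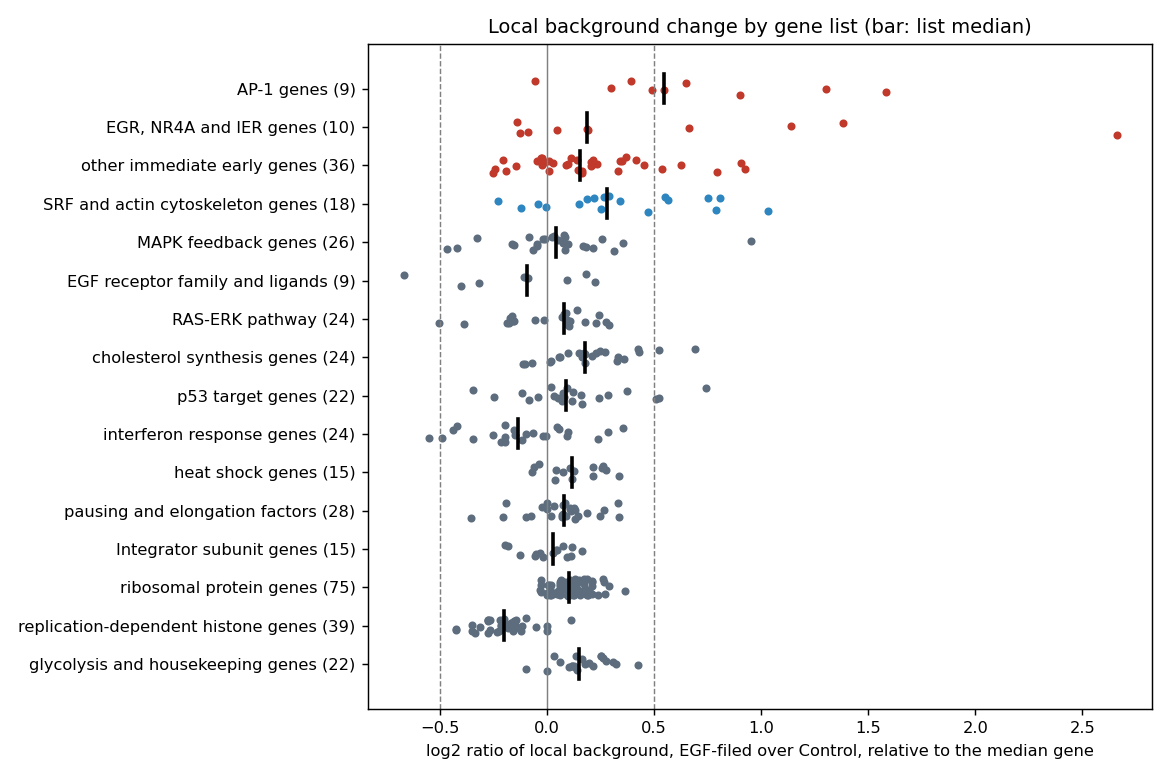
Log2 ratio of the local background at start peaks, EGF-filed over Control, relative to the median gene, with 1 point per gene and a bar at each list's median. The dashed lines mark 0.5 and -0.5, and 14 of 55 immediate early genes and 6 of 18 actin cytoskeleton genes lie beyond 0.5.

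Elsewhere, cholesterol synthesis genes, which SREBP factors control, had a list median of 0.18, and 21 of 24 lay above 0. IDI1, an enzyme of the pathway, was called higher (17.5 to 25.8 fragments). Of 22 genes in the p53 target list 3 were called higher, with SESN1, a stress sensor, at 5.39 and 9.24 fragments. Among 24 interferon response genes 0 were called higher and 1 lower, IFIT2, at 3.04 and 2.12 fragments. A gene at the lowest background of both libraries takes -0.19 on this scale, which was the case for OAS1 and IFI44L. The count called in either direction was 0 for ribosomal protein genes (0 of 75), replication-dependent histone genes (0 of 39), Integrator subunit genes (0 of 15), pausing and elongation factors (0 of 28), heat shock genes (0 of 15) and glycolysis and housekeeping genes (0 of 22). Over all genes 0.731% were called higher and 2.07% lower in the EGF-filed library, shares at which lists this small would hold few or none. Ribosomal protein genes lay on the high side all the same, 70 of 75 above 0 with a median of 0.10, and histone genes on the low side, 3 of 39 above 0 with a median of -0.20. In the library titled EGF, against the same Control, 25 of 74 ribosomal protein genes and 32 of 40 histone genes were called lower, and over all genes 4.89% were called higher and 3.09% lower.

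Several genes with large changes belonged to none of the lists. CA11, a carbonic anhydrase relative, went from 7.13 to 21.98 fragments, and TSC22D3 (7.76 to 16.02) and LMNA (6.19 to 12.4) were about 2-fold higher. No start is listed for CA11, so a peak near either end counted, and different peaks may have been compared. Its start peak went from 1062 to 729 bp and its covered length from 2147 to 2126 bp. At IQCN (14.1 and 38.1) and KREMEN2 (12.2 and 27.0) the compared summits lay apart, at 4 and 704 bp and at -246 and 999 bp from the start, so different peaks were compared. CA11 was higher by as much in the library titled EGF (1.72), a comparison that shares the Control library. LMNA differed by -0.91 between the numbered Control libraries. The largest falls were at TRIM8 (21.2 to 7.22 fragments) and LTBP4 (19.9 to 7.91), with log2 ratios of -1.59 and -1.37, and of -1.53 and -1.45 in the library titled EGF against the same Control. The LTBP4 summits lay at 112 bp and -712 bp, so that different peaks were compared there too.

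Rank gave another picture, though not an independent one. The caller's p and fold depend on the summit stack and the local background together. Start peaks were ranked within each library by the caller's -log10 q among the 12170 shared genes, rank 1 being the highest, and a shift of 10 percentile points was called. Upward shifts were called at 1428 genes (11.7%) and downward shifts at 1394 (11.5%). The numbered Control libraries gave 18.2% and 18.3%, and the library titled EGF 20.5% and 21% against the Control. Among the immediate early lists 9 of 55 shifted up and 4 down, and the median shift was 0.20 points, beside -0.07 for all genes. CEP128 (9.99) stood just outside the threshold and TERF2 (10.0) just inside.

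EGR1 had the largest fall of all genes in the better ranked 50% of at least one list, from rank 2874 to 9013 (-50.4 points). Its -log10 q was 102 in the Control library and 41.4 in the EGF-filed library. Both its summit stack and its local background were higher there, and at a given stack a higher background gives a lower -log10 q. ACTG1 fell from rank 1312 to 5728 (-36.3), ACTB from 720 to 3000 (-18.7) and JUND from 880 to 2396 (-12.5), and in each the local background was called higher. FOS was near the top in both lists, at ranks 18 and 123. No summit stack exceeded 391 fragments in the Control library or 386 in the EGF-filed library, and the stacks of EGR1, FOS and ACTG1 in the latter, 358, 356 and 374, were close to that. Ranking by the caller's fold, which a higher local background also lowers at a given stack, left 5 immediate early genes called up and 17 down.

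**Figure D5:**
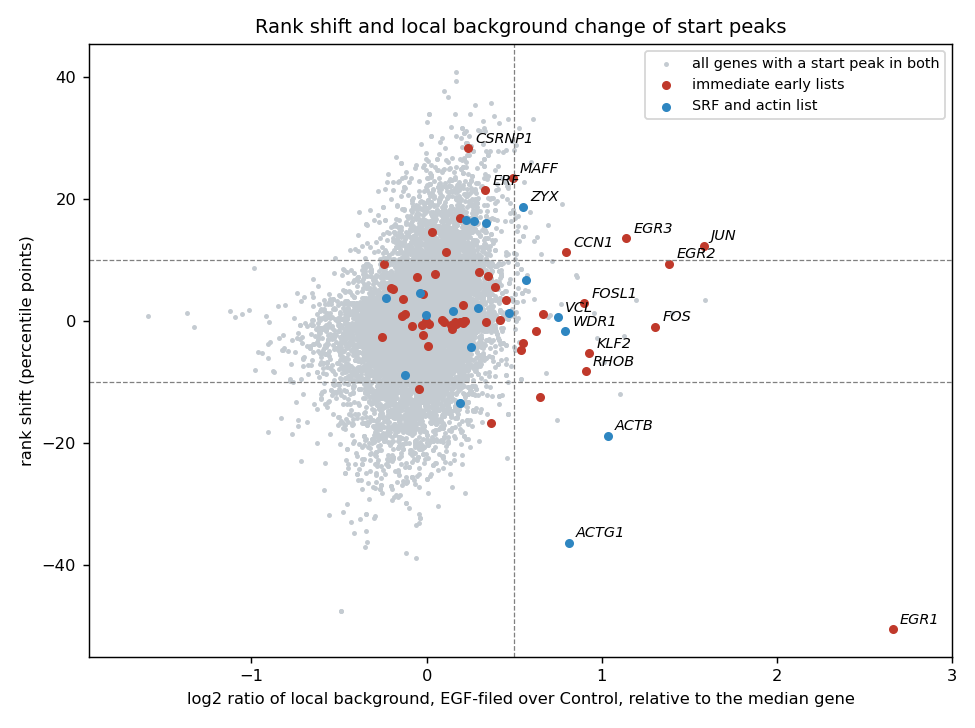
Rank shift of start peaks (percentile points, EGF-filed against Control, positive for a better rank) against the log2 ratio of their local background for 12170 genes. EGR1 is lowest at -50.4 points and farthest right at 2.66, while JUN (12.4 points) and CCN1 (11.3 points) moved up on both axes. The axes are not independent, since at a given stack a higher background gives a lower -log10 q.

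Other response genes moved up in rank. JUN went from rank 2863 to 1356 (12.4 points), CCN1 from 2400 to 1020 (11.3), ERF from 5025 to 2404.5 (21.5) and MAFF from 7861 to 5004 (23.5). CSRNP1, a nuclear protein of early response genes, went from 10197.5 to 6739.5 (28.4), with a stack of 54 and 94 fragments. EGR3 (13.6), NR4A2 (16.9), ZFP36L2 (11.3) and CCN2 (14.7) also shifted up, and KLF6 (-16.7) and PLAUR (-11.2) shifted down. Among feedback genes DUSP14 (25.4), SPRY4 (13.5), ETV5 (12.6) and PHLPP1 (15.6) shifted up and SPRY1 (-22.8) down, and among ligands TGFA (13.5) shifted up. Of these, MAFF (-16.1), ERF (-17.1), SPRY4 (-14.3) and NR4A2 (15.5) differed by more than 10 points between the numbered Control libraries as well.

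The largest upward shifts over all genes were at PPP1R12C (40.9), GALNT10 (39.4), PAG1 (37.8), CDR2 (36.9) and RNASEH2C (35.8), and none of these 5 reached 0.5 in local background. After EGR1, the largest downward shifts were at GFI1B and TSC1, which share a peak (-47.5), MIX23 (-38.8), NUP107 (-38.1) and ZNF175 (-37.0). NUP107 differed by -32.8 points between the numbered Control libraries.

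A start peak was present at 12398 of 19970 protein-coding genes in the Control library and at 12296 in the EGF-filed library. It was gained at 126 of the genes without one (1.66%) and lost at 228 of those with one (1.84%), against 4.82% and 0.833% between the numbered Control libraries. In the immediate early lists 0 were gained and 0 lost, since 55 of 58 had a start peak in both libraries and 3 in neither. The gained peaks with the highest -log10 q were at PEX2 (105), LANCL2 (77.7) and RHNO1 (77.6), and the lost ones at H2AC21 (121.5), SMCO3 (105) and H3C14 (94.3). The covered length of PEX2, LANCL2, SMCO3 and H3C14 changed by only 12, -79, -5 and 254 bp, so bases at these genes lay in peaks in both libraries.

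Inside genes of at least 3 kb, more than 1 kb from either end, a peak was gained at 792 of 18065 genes (4.38%) and lost at 1016 (5.62%), against 5.91% and 1.75% between the numbered Control libraries. With lists cut to equal length the balance turned round, with 916 genes gaining and 758 losing one. Within 5 kb past the end, a peak was gained at 539 of 15811 genes with a listed strand (3.41%) and lost at 778 (4.92%), against 3.6% and 0.803%, and with lists of equal length this balance also turned round, to 643 gained and 576 lost. In the immediate early lists 7 of 43 genes gained one past the end, FOS, JUN, EGR1, IER5L, PIM1, GADD45B and SOCS3, and 3 lost one. The JUN peak past the end was also called in numbered Control library 2, and a peak past the EGR1 end in both numbered Control libraries. Interior peaks were gained at 2 of 46 and lost at 1 of these genes.

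Markers of the labelled cell type were present. Of 12 epithelial and colon markers 8 had a start peak in both libraries, with KRT18, an epithelial keratin, at rank 534 and 914. For other cell types 1 of 15 blood cell markers, 5 of 15 neuron markers and 1 of 12 fibroblast and muscle markers had one in both.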

How the data were processed

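Pol II ChIP-seq peak lists of 2 unnumbered libraries were compared, with 4 further Pol II lists and 2 input lists as reference. Per the submitters' processing notes, MACS2 2.2.7.1 was used with hg38, beside Bowtie2 2.3.4.1, Trim Galore 0.6.6, deepTools 3.5.1 and Picard 2.25.7, and no settings are stated there. Per the labels, each list belongs to 1 library. The deposited narrowPeak columns hold a score, the fold enrichment at the summit (a ratio), -log10 p and -log10 q values, and the summit position. The authors deposited no read totals in these lists, and the local background stands in for depth.

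Peaks sharing at least 1 bp with an input peak were removed. Genes are the 19970 protein-coding RefSeq genes (GRCh38.p14) on chromosomes 1 to 22 and X. A listed start existed for 15811 of them, and for 4159 both gene ends were used. Of a gene's start peaks the one with the highest -log10 q was taken. Ranks and widths used these peaks. The fragments n at the summit and the background b were solved so that fold = (n + 1)/(b + 1) and p is the Poisson tail beyond n, and this, the covered length and the exclusion of summits within 1 kb of any start from those past gene ends were added after seeing the data. The solution was tested on simulated data. Whether the inputs served as control in peak calling is not stated. Python 3.11.15, numpy 2.4.6, pandas 2.3.3 and scipy 1.17.1 were used.

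Genes named are the members of the 5 response lists that were gained, lost or shifted by at least 10 points, with FOS, EGR1, JUN, IER2, DUSP1, DUSP6, NR4A1 and SPRY4, the largest rank shifts, gains, losses and width changes, up to 4 genes of other lists, and the largest changes in the 2 added measures. Other list members were named after their values were seen, mainly because their local background was called. Of 516 listed symbols in 21 lists 515 had an entry. Members and lists were chosen with earlier results of these data known. Alternatives covered input peaks, thresholds, windows, ranking columns and the other reading of the labels. The result for 1 listed gene is left out.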

Additional observations from a re-analysis of the deposited data

How the results depend on the processing

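No paired analysis was possible because each condition has 1 library and the numbered libraries are not part of the comparison. Leaving out a replicate could not be done for the same reason. Of 108 values under alternatives, 81 stayed within 1.5 times the reported count. With a -log10 q of at least 5, peaks past gene ends were gained at 338 and lost at 469 genes, and covered length rose at 34 genes. With lists of equal length it rose at 33. Equal length also turned round the excess of losses over gains, to 916 gained and 758 lost for interior peaks and 643 and 576 past gene ends. A 500 bp window gave 209 gained start peaks. Ranking by fold left 5 immediate early genes up and 17 down. A shift of 20 points left 266 genes up and 218 down. Summed widths gave 68 wider and 117 narrower start peaks. An overlap of 50% of both peaks was met by 73.2% of Control and 78.0% of EGF-filed peaks. The library titled EGF had 385 start peaks lost, 2459 genes up and 2525 down in rank, 9 immediate early genes down in rank, 587 genes with a higher local background and 525 with less covered length. Scaling by the lowest background gave 545 genes higher and 57 lower, with 22 immediate early genes higher. At 1 log2, 12 were higher and 7 lower, 5 of the former immediate early genes. A covered length call of 500 bp gave 421 genes up and 597 down. The cause of these moves was not tested. The local background and covered length, and their alternatives, were chosen after seeing the data.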
